A study of Rattus norvegicus with 6 samples.

Results

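Carbonic anhydrase genes were examined in the livers of 6 male Sprague-Dawley rats, with RNA of each liver on 1 one-colour Agilent array. The genes are Car1, Car2, Car3, Car4, Car5a, Car8 and Car14, found as the probes whose RefSeq accession carries that symbol. All 7 had a probe, with 8 probes in all among 61657 non-control probes and 15284 gene symbols on the array. The genes were selected on their array signals in these same animals, treated against corn oil, from an earlier look at the data. Differences between the treatment groups are therefore given for them as a description, with no p-value and no weight as evidence. Another 9 genes of the family were not among them and are given separately.

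Corn oil alone was given to 3 of the rats, and the other 3 were dosed with bromodichloromethane at 200 mg/kg/day. This halogenated methane is a by-product of water chlorination, and the series concerns changes in liver gene expression caused by a chemical. The animals were 5 weeks old when purchased and were of the same outbred stock and sex. One label gives measurement at 28 days and another gives dosing for 9 weeks, so the length of exposure is not settled here.

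Carbonic anhydrases are zinc enzymes that interconvert carbon dioxide and water with bicarbonate and a proton. The cytosolic enzymes include Car1 and Car2, which are abundant in red cells, and Car3, a slow enzyme that is plentiful in skeletal muscle, fat and the liver of male rats. Car5a works in liver mitochondria, where it supplies bicarbonate to urea synthesis and gluconeogenesis, and Car4 and Car14 act at the outer face of cell membranes. Car8 is a related protein that lacks the hydration activity and binds the inositol trisphosphate receptor.

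Array brightness, taken as the 75th percentile of all non-control probes, ranged from 670 to 825 fluorescence units, and saturation flags were absent from all non-control probes. The 3 corn oil arrays and treated replicate 1 were on slide 1, and treated replicates 2 and 3 were on slide 2. The hepatocyte markers Alb, Apoa1, Ttr, Serpina1, Tf, Fgb, Ahsg and Hnf4a were well above background on all 6 arrays, and the sum of their signals ranged from 4460 to 4950 in corn oil livers and from 3810 to 4310 in treated livers. Of them Serpina1 passed as lower, at -0.50 on the log2 scale (limma adjusted p = 0.023). It did not pass with quantile normalization (-0.23), with spike-in scaling (-0.02) or with any 1 animal left out, and the median of the 8 markers was -0.25, or 0.23 with spike-in scaling. Signals are given as multiples of the 75th percentile of their own array. Probes differ in how brightly they bind, so levels were compared between animals for 1 probe at a time and were not ranked between genes. Sums over marker lists are weighted towards their brightest probes. The labels describe separate animals, and the number of arrays limits the precision.

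Of the 7 genes, 6 were well above background on all 6 arrays, and Car4 was not well above background on any. In treated livers Car3 was 12.4-fold lower, Car1 was 2.54-fold lower and Car8 was 1.99-fold lower than in corn oil livers. These 3 of the 6 measured genes passed an adjusted p of 0.05 in the limma model fitted to all 28995 features, where 9.36% of features passed, 3.41% passed as lower in treated livers and 5.96% as higher. They were also the 3 whose groups did not overlap, where 34.4% of all features did not overlap and 16.0% lay wholly lower in treated livers. Since the genes were selected on this comparison, these counts describe the selection and nothing is read from them. The median log2 fold change of the 6 genes was -0.49, against 0.0014 over all features. In RNA of whole liver, fewer cells of a type and less RNA per cell cannot be told apart.

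**Figure D1:**
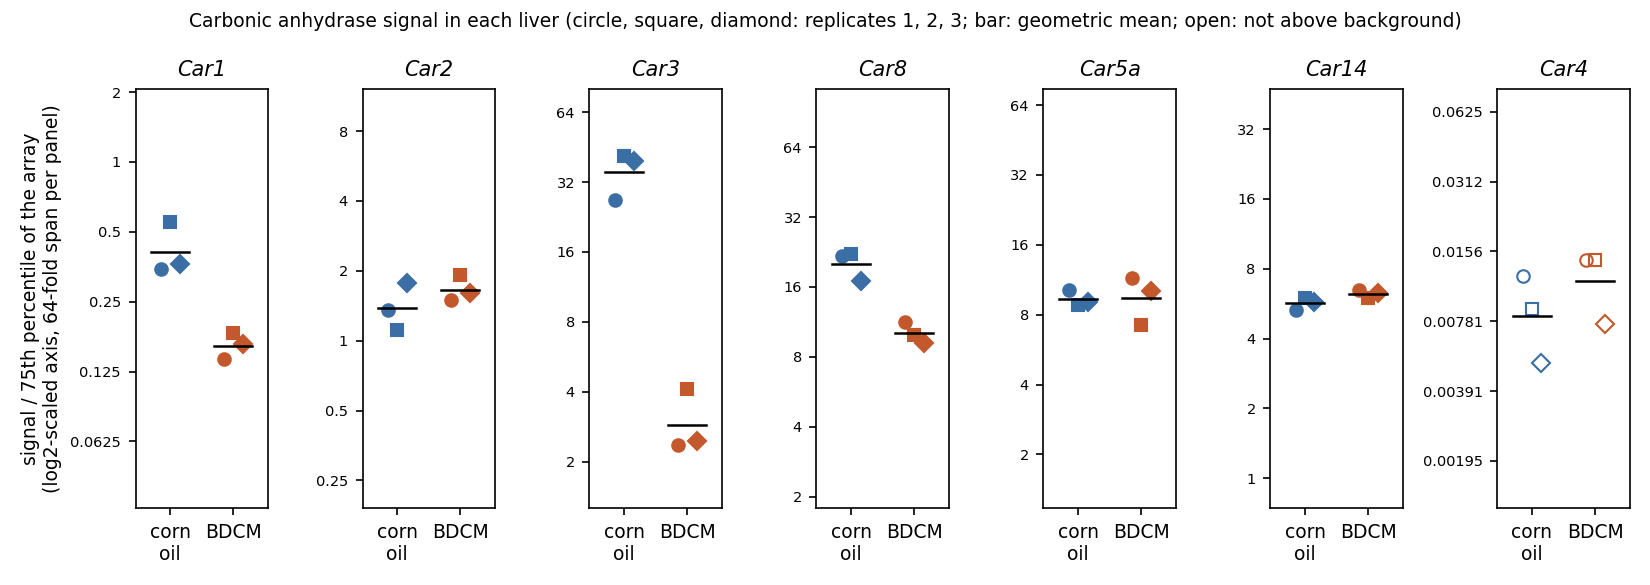
Signal of each carbonic anhydrase gene in each liver, as a multiple of the 75th percentile of the array on a log2-scaled axis, for corn oil and bromodichloromethane (BDCM) rats; symbols are replicates 1, 2 and 3, bars are geometric means, and open symbols are not well above background. The groups stand apart for Car3, Car1 and Car8 and overlap for Car2, Car5a and Car14.

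Among the cytosolic enzymes, the signal of Car3 was 26.9, 41.6 and 39.6 in corn oil replicates 1, 2 and 3. It was 2.36, 4.09 and 2.44 in treated replicates 1, 2 and 3. Every treated liver lay below every corn oil liver, and treated replicate 2 was the highest of its group. On the log2 scale the group means were 5.15 ± 0.34 (SD, n = 3) and 1.52 ± 0.44 (SD, n = 3), a difference of -3.63 (SE 0.27, 95% interval from -4.28 to -2.97). Of the 28995 features 28 had a lower fitted value. Nothing is read from this rank, since Car3 was selected on this comparison. Over 22 alternatives the difference lay between -3.91 with slide 1 alone and -3.14 with scaling by the spiked-in control transcripts. It was between -3.88 and -3.49 when any 1 animal was left out.

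Car1 had a dimmer probe, with signals of 0.347, 0.549 and 0.364 in corn oil replicates 1, 2 and 3. The treated replicates were at 0.141, 0.183 and 0.164. All treated livers were below all corn oil livers, and corn oil replicate 2 was the highest of the 6. The group means were -1.28 ± 0.36 (SD, n = 3) and -2.63 ± 0.19 (SD, n = 3) on the log2 scale, a difference of -1.34 (SE 0.20). It was -1.54 on slide 1, where only treated replicate 1 stood for its group, and -1.24, -1.43 and -1.35 when treated replicate 1, 2 or 3 was left out.

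Car2, the fast cytosolic enzyme of many tissues, had signals of 1.36, 1.11 and 1.77 in corn oil replicates 1, 2 and 3. The treated replicates were at 1.49, 1.92 and 1.60. The groups overlapped, with corn oil replicate 3 above treated replicates 1 and 3. The difference was 0.26 (SE 0.19) on the log2 scale, with a 95% interval from -0.21 to 0.73.

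Car2, Car3, Car1 and Car13 follow each other in that order on chromosome 2 in the RefSeq annotation of the rat assembly GRCr8, with no annotated gene between them. Of 16 family genes in that annotation, these 4 are the ones with another family gene next to them. The 4 neighbours thus had differences of 0.26 for Car2, -3.63 for Car3 and -1.34 for Car1, and no fold for Car13. For the brightest of the 3 Car13 probes, the signal was flagged as well above background in 2 corn oil livers and 0 treated livers. Its signals were 0.101, 0.0147 and 0.0713 in corn oil replicates 1, 2 and 3 and 0.0052, 0.0108 and 0.00447 in treated replicates 1, 2 and 3. Car13 did not meet the filter on dim probes and was not tested. It was singled out after its values were seen.

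In the mitochondrion, Car5a had signals of 10.2, 8.82 and 9.06 in corn oil replicates 1, 2 and 3. Treated replicates 1, 2 and 3 were at 11.5, 7.22 and 10.1, on either side of the corn oil livers. The difference was 0.01 (SE 0.18, 95% interval from -0.43 to 0.46). Its sign turned when corn oil replicate 2 or 3 or treated replicate 1 or 3 was left out (-0.03, -0.01, -0.13 and -0.04) and with array weights (-0.13), so no direction holds.

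Car14, a membrane enzyme with its active site outside the cell, had signals of 5.29, 5.98 and 5.78 in corn oil replicates 1, 2 and 3. Treated replicates 1, 2 and 3 were at 6.46, 5.97 and 6.30. Its spread was the smallest of the 6 genes in both groups, with SDs of 0.09 and 0.06 on the log2 scale, and treated replicate 2 lay just under corn oil replicate 2. The difference was 0.14 (SE 0.09, 95% interval from -0.08 to 0.36). Car4, an enzyme tethered to the membrane by a lipid anchor and known from endothelium, had 1 probe. Its signal was not well above background, while the endothelial markers Kdr and Fcgr2b were well above background on all 6 arrays.

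Car8 was measured with 2 probes. The brighter one gave 21.7, 22.1 and 17.0 in corn oil replicates 1, 2 and 3 and 11.3, 9.97 and 9.13 in treated replicates 1, 2 and 3. The dimmer one gave 5.31, 5.68 and 4.29 against 2.63, 2.51 and 2.25. With either probe, all 3 treated livers lay below all 3 corn oil livers, and corn oil replicate 3 was the lowest of its group. The differences were -1.0 (SE 0.14) and -1.04 (SE 0.13) on the log2 scale. Both probes were read in the same RNA, so they are no replicates of each other. For the brighter probe the difference was -0.84 on slide 1 alone and -0.93, -0.99 and -0.92 without corn oil replicate 2, treated replicate 2 or treated replicate 3. With spike-in scaling it was -0.51.

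**Figure D2:**
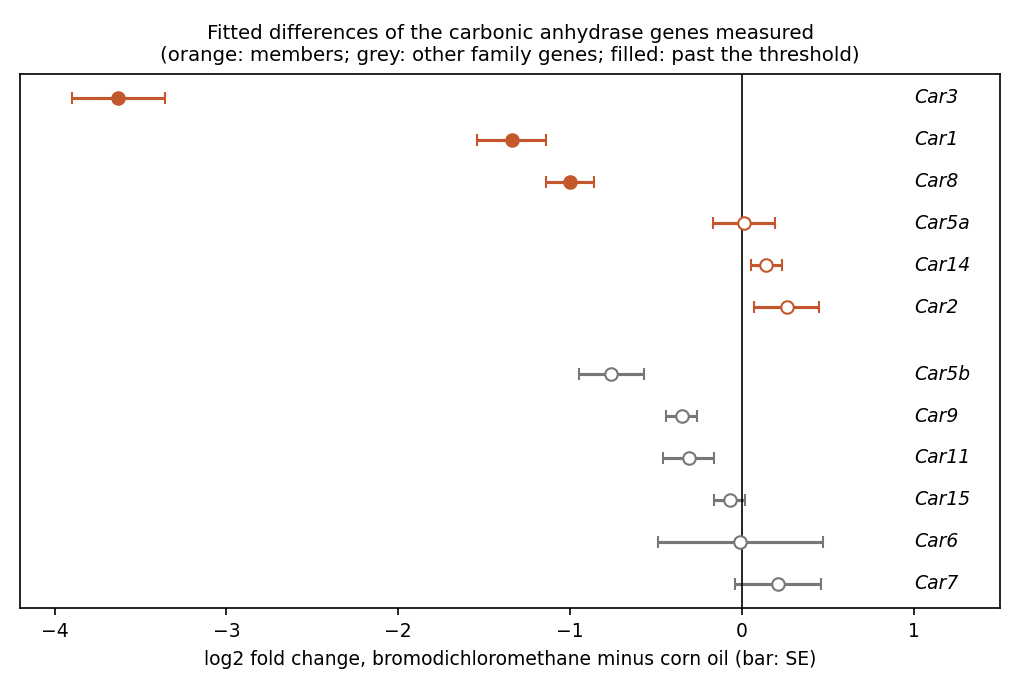
Log2 fold change (bromodichloromethane minus corn oil) with its standard error for the 6 measured carbonic anhydrase genes in orange and the 6 other measured genes of the family in grey; filled points passed the threshold over all features. Car3, Car1 and Car8 are the filled points, at -3.63, -1.34 and -1.0.

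The other genes of the family are Car5b, Car6, Car7, Car9, Car10, Car11, Car12, Car13 and Car15. Of these 9, 8 had a probe with a matched accession and 6 were measured; no probe was matched to Car10, and Car12 was not well above background in any liver. None of the 6 passed in limma, and 2 had an unadjusted p under 0.05. The share of all features with such a p was not taken, so nothing is read from that count. Car5b, the second mitochondrial enzyme, was at 0.0580, 0.0558 and 0.0706 in corn oil replicates 1, 2 and 3 and at 0.0456, 0.0355 and 0.0290 in treated ones. Those groups did not overlap, where 16.0% of all features lay wholly lower in treated livers. The difference was -0.76 (SE 0.19, limma adjusted p = 0.059). The Car5b probe was dim, and its difference was -0.33 with normexp background correction, -0.28 with spike-in scaling and -0.42 on slide 1 alone. Car9, a membrane enzyme induced by hypoxia, lay between 0.192 and 0.200 in corn oil livers and between 0.141 and 0.167 in treated livers, a difference of -0.35 (SE 0.09, limma adjusted p = 0.072). With spike-in scaling Car9 was at 0.14, so its direction depends on the scaling. The median over the 6 was -0.19, and 0.30 with spike-in scaling.

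Scaling matters for the small differences. Spike-in scaling moved the median of all features upwards to 0.48. Car3, Car1 and Car8 were then at -3.14, -0.86 and -0.51. Car2, Car5a and Car14 were at 0.75, 0.50 and 0.62, beside that shift of all features. Falls and rises are therefore relative to the upper-quartile brightness of each array.

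**Figure D3:**
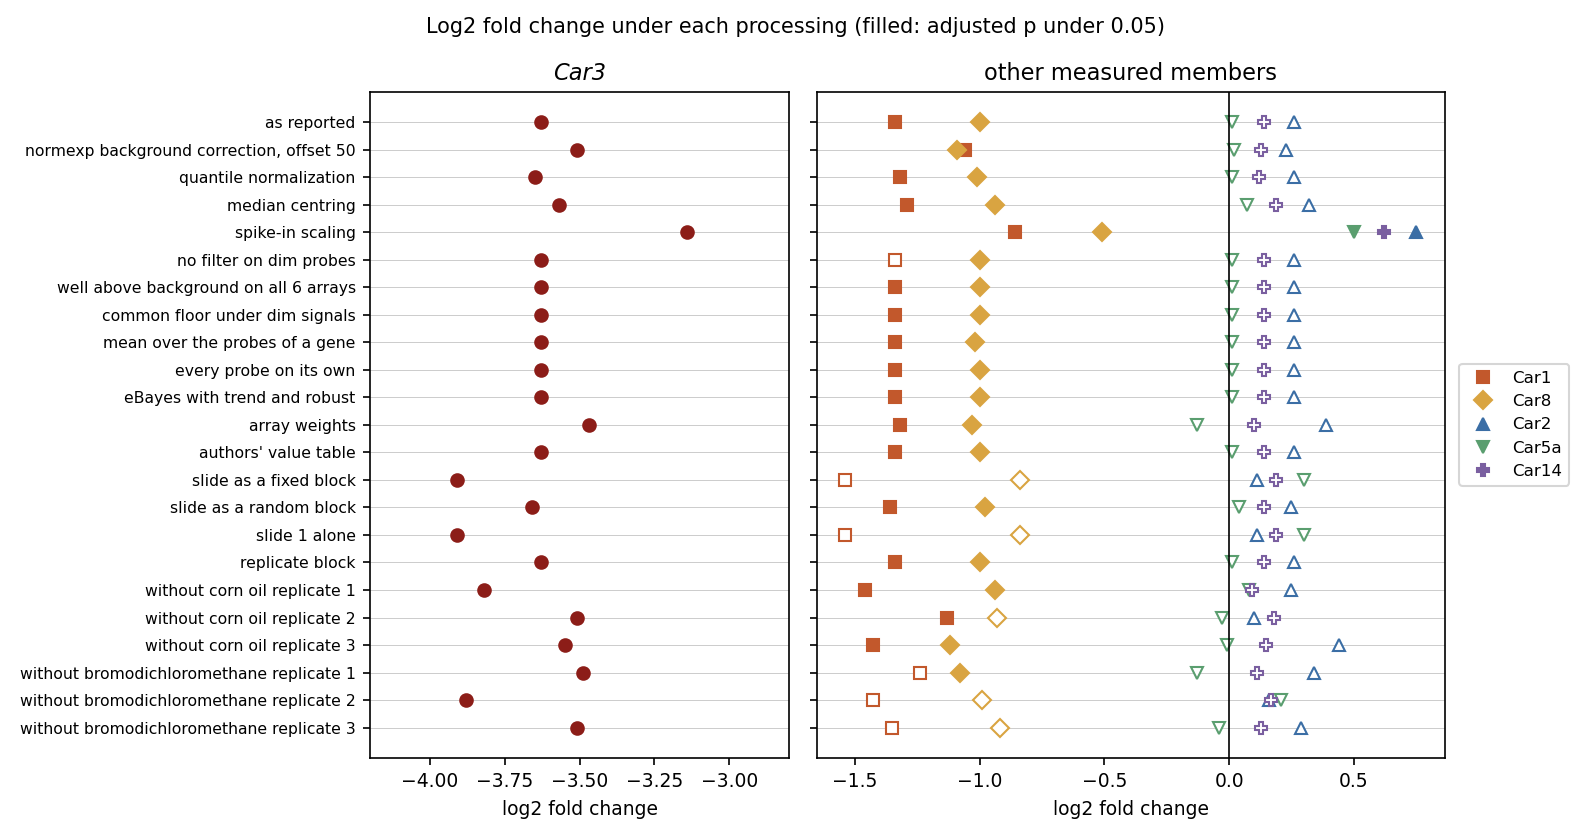
Log2 fold change of the 6 measured carbonic anhydrase genes as reported and in 22 alternatives, Car3 in the left panel and the others in the right; filled symbols passed the threshold. Car3 is filled throughout, Car1 and Car8 stay below 0 but are open in 6 and 5 alternatives, and Car2, Car5a and Car14 are filled with spike-in scaling alone.

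Car1 is a red cell enzyme, so markers of red cells were measured beside it. Of 16 red cell and erythroblast markers, 13 were on the array and 8 were measured. All 8 had a log2 fold change below 0, with a median of -0.66, and 1 passed in limma. That gene was Epb42, a protein of the red cell membrane, at -1.68 (SE 0.34, adjusted p = 0.036), with a probe above background in 3 of 3 corn oil and 2 of 3 treated livers. Epb42 thus met the filter through corn oil livers only, where it was higher, and its difference was -0.62 with normexp background correction. The summed signal of the 8 ranged from 711 to 1070 in corn oil livers and from 478 to 695 in treated livers. The globin genes Hba-a1 and Hba-a3 had differences of -0.68 (SE 0.19) and -0.65 (SE 0.23), with limma adjusted p = 0.079 and 0.13. With spike-in scaling 5 of the 8 lay below 0 and the median was -0.18. Gata1 and Rhag were not well above background in any liver.

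Car1 and globin ordered the corn oil livers differently and the treated livers alike. Among corn oil livers Car1 was highest in replicate 2, whereas Hbb, the beta globin gene, was lowest there, at 185 against 278 and 287 in replicates 1 and 3. Among treated livers Car1 and Hbb were both lowest in replicate 1 and highest in replicate 2. Hbb was at 120, 184 and 166 in treated replicates 1, 2 and 3. Treated replicate 2 had an Hbb signal of 184, close to corn oil replicate 2, and a Car1 signal of 0.183 against 0.549. Car2, also a red cell enzyme, was at 0.26 with overlapping groups. The part of red cells in the Car1 difference was not tested.

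**Figure D4:**
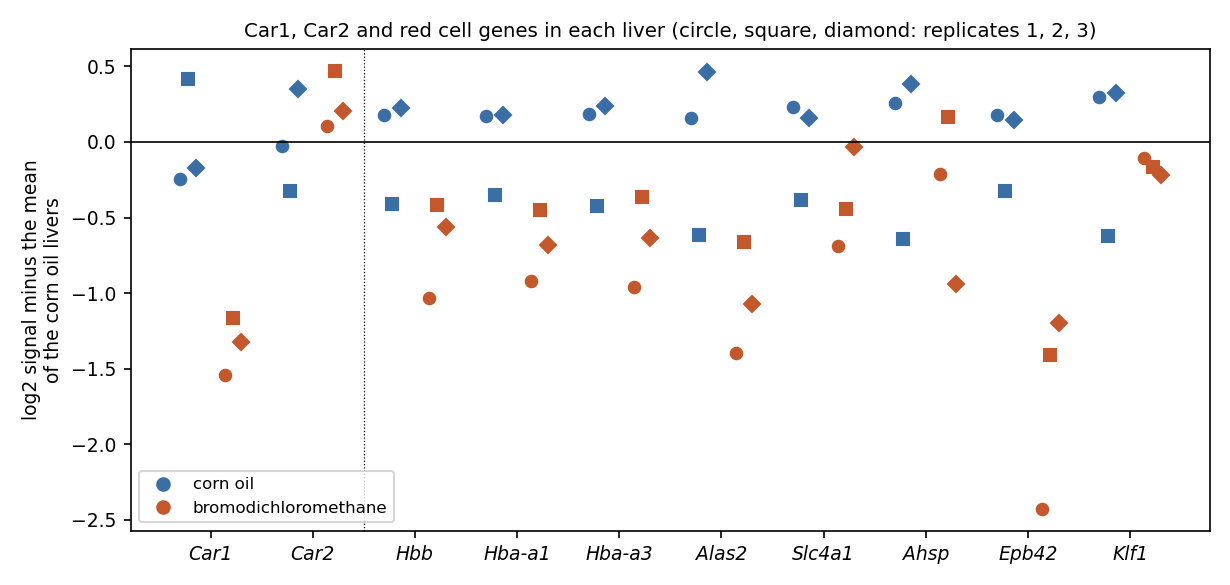
Log2 signal of Car1, Car2 and the 8 measured red cell markers in each liver, each minus the mean of the 3 corn oil livers; symbols are replicates 1, 2 and 3. Corn oil replicate 2 (blue square) is the highest corn oil liver for Car1 and the lowest for Hbb, and the groups of Car1 stand apart. Treated replicate 2 is the highest treated liver for Car1 and for Hbb.

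Car3 is also abundant in fat and skeletal muscle, and no measured marker of either passed as lower. Of 9 adipocyte markers 7 were on the array and 5 were measured, and the defining genes Adipoq and Lep were not well above background in any liver. The summed adipocyte signal was 16.9 to 18.1 in corn oil livers and 13.9 to 20.3 in treated livers. The brightest members, Cfd and Cidec, both stood at -0.08 (SE 0.19 and 0.13). Fabp4, a fatty acid binding protein that macrophages also make, rose by 2.06 (SE 0.16, limma adjusted p = 0.0038). Of 10 skeletal muscle markers 9 were on the array and 6 were measured, with summed signals of 1.21 to 1.74 in corn oil and 1.53 to 1.87 in treated livers. Myh1 and Myh4, myosins of fast muscle, were not well above background in any liver. The brightest 2 muscle markers, Mb and Tnni2, were at 0.22 (SE 0.22) and 0.08 (SE 0.11) and did not pass. Of the 6, 5 lay above 0 and 1 below, with a median of 0.53, or 0.17 with normexp. Acta1, skeletal muscle actin, rose by 1.18 (SE 0.25, limma adjusted p = 0.041), with a probe above background in 2 of 3 corn oil livers. It met the filter through treated livers only, where it was higher, and was at 0.34 with normexp.

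Bile duct cells and macrophages can hold Car2. The summed signal of 7 measured bile duct markers of 9 was 2.03 to 2.21 in corn oil and 2.87 to 4.05 in treated livers, and 1 passed. That was Epcam, at 1.12 (SE 0.18, limma adjusted p = 0.021). Spp1 was at 0.22 (SE 0.49) and the keratin Krt19 at 0.16 (SE 0.24). Epcam was the brightest of the 7, at 0.817 to 1.2 in corn oil and 1.94 to 2.48 in treated livers. It weighed most in the bile duct sum, and the median of the 7 was 0.16. The 10 macrophage markers summed to 111 to 148 in corn oil and 109 to 137 in treated livers. Of them Mmp12 and Gpnmb rose by 4.39 (SE 0.37) and 1.73 (SE 0.36), with limma adjusted p = 0.0048 and 0.037. Mmp12 was above background in 2 of 3 corn oil livers, met the filter through treated livers only, where it was higher, and was at 2.59 with normexp. Of the brightest 2 macrophage markers, Clec4f of Kupffer cells was at -0.24 (SE 0.21) and Cd68 at 0.31 (SE 0.12), and neither passed. Clec4f weighed most in the macrophage sum, with 73 to 105 in corn oil and 57.3 to 88.1 in treated livers. Of 9 endothelial markers 6 were measured and Lyve1 passed at -0.56 (SE 0.11, limma adjusted p = 0.030). Lyve1 did not pass with spike-in scaling (-0.07) or with any 1 animal left out, and the endothelial median was -0.27, or 0.22 with spike-in scaling. The summed endothelial signal was 63.7 to 66.9 in corn oil and 52.4 to 56.5 in treated livers. Over all marker lists 8 genes passed, where 9.36% of all features passed, and nothing is read from that count. With 1 animal left out 2 to 4 of the 8 passed. Fabp4 and Mmp12 passed each time, with the limit of the filter given above for Mmp12. The part of these cells in the carbonic anhydrase values was not tested.

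Bicarbonate is used by carboxylases and by carbamoyl phosphate synthesis. Of 8 such genes, all measured, 1 passed as lower and 0 as higher, where 3.41% of all features passed as lower. Of the 8, 7 lay below 0 and 1 above. The gene that passed was Cps1, which makes carbamoyl phosphate for urea. Cps1 was at 16.6, 15.1 and 14.8 in corn oil and 11.3, 9.86 and 9.22 in treated replicates 1, 2 and 3. The difference of Cps1 was -0.62 (SE 0.11, limma adjusted p = 0.027). Cps1 did not pass with spike-in scaling (-0.13), or without any 1 animal other than treated replicate 1. On slide 1 alone it was at -0.45. Pc, the pyruvate carboxylase, was at -0.16 (SE 0.12) and did not pass. The median of the 8 was -0.18, and 0.30 with spike-in scaling.

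Of 29 genes for transport of bicarbonate, protons, lactate and related ions, 18 were measured, none passed in limma, and 5 had an unadjusted p under 0.05. Nothing is read from that last count either, since the share over all features was not taken. The median log2 fold change of the 18 was 0.00. With spike-in scaling 8 passed as higher and the median was 0.48, against 0.48 over all features. The smallest adjusted p-values were those of Slc4a4, the sodium bicarbonate cotransporter of the basolateral membrane, and of Slc26a1, a sulphate and anion exchanger. Slc4a4 was at 0.61 (SE 0.15, limma adjusted p = 0.053), with 3.57, 2.92 and 2.53 in corn oil and 4.88, 4.22 and 4.55 in treated livers. Slc26a1 was at -0.51 (SE 0.12, limma adjusted p = 0.055), with 51.5, 59.6 and 65.4 in corn oil and 37.5, 43.5 and 43.0 in treated livers. For each of these genes the groups did not overlap, where 34.4% of all features did not overlap. Of the 18 genes, 3 lay wholly lower and 2 wholly higher in treated livers, and nothing is read from this. Slc4a4 passed in 8 and Slc26a1 in 5 of 22 alternatives, and Slc26a1 was at -0.02 with spike-in scaling.

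Car3 in rat liver is known to be higher in males and to depend on the pattern of growth hormone release. Of 10 other genes with a male bias in rat liver, all measured, 6 passed as lower in treated livers and 0 as higher. Of all features 3.41% passed as lower. All 10 lay below 0, with a median of -1.40. The 6 that passed were Cyp2c11 (-3.03), Mup4 (-2.82), Mup5 (-2.26), Ust5r (-1.98), Cyp3a2 (-1.74) and Cyp2c13 (-0.85) on the log2 scale. Their limma adjusted p ran from 0.0093 for Ust5r to 0.026 for Cyp3a2. Ust5r and Cyp2c13 still passed with any 1 animal left out, whereas the number of the 6 that passed ranged from 2 to 6. The median was -0.91 with spike-in scaling, where 5 passed as lower. The list was drawn up with earlier results of these animals known and is not independent evidence of a direction.

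Of 13 genes of growth hormone signalling, 12 were measured and 1 passed. Of the 12, 6 lay above 0 and 6 below, with a median of 0.03. With spike-in scaling 5 passed as higher and 1 as lower, and the median was 0.51. Prlr, the prolactin receptor, rose by 3.74 (SE 0.49, limma adjusted p = 0.015), and by 2.81 on slide 1 alone, where it did not pass. Prlr also did not pass without corn oil replicate 2 or treated replicate 2. Ghr, the growth hormone receptor, was at -0.34 (SE 0.12), Stat5b, its main transcription factor, at -0.27 (SE 0.13) and Igf1 at -0.43 (SE 0.14), and none of the 3 passed. Bcl6, a repressor of STAT5 targets, was at -2.36 (SE 0.69, limma adjusted p = 0.087). Jak2 was at 0.37 (SE 0.12), Socs2 at 0.38 (SE 0.24) and Onecut1 at 0.78 (SE 0.81), and these did not pass either.

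Among 10841 named genes well above background on all 6 arrays, the 5 whose log2 signals were most correlated with those of Car3 over the 6 arrays were Arg1 (Pearson r = 0.998), Mcpt10 (0.995), Tymp (0.995), Inpp5f (0.994) and Ctsc (0.993). Arg1 is the last enzyme of the urea cycle, Mcpt10 a mast cell protease, Tymp thymidine phosphorylase, Inpp5f a phosphoinositide phosphatase and Ctsc cathepsin C. The 6 points share the split into treated and corn oil livers, which carries these correlations, and they are a description. The differences of the 5 genes were smaller than that of Car3, at -0.54, -1.15, -1.47, -0.39 and -0.40 in the same order. With spike-in scaling Arg1 was at -0.06 and did not pass, and Inpp5f and Ctsc were both at 0.09, so the direction of the latter pair depends on the scaling.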

How the data were processed

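The authors read the scans in Agilent Feature Extraction (version 10.7 in the submitters' processing notes). The deposited scanner files hold background-subtracted intensity per spot, not scaled between arrays; the deposited value table holds a ratio, which from the values is that intensity over the 75th percentile of the array, within 1% for at least 96.4% of probes. The 0 or 1 quality flags are those of the deposited files. Here log2 intensity minus the 75th percentile of each array was used, without 27 probes flagged as outliers. Probes were named through RefSeq accessions of the rat assembly GRCr8 (27460 of 61657 matched 1 symbol); the array was designed on an older build. A probe had to be well above background on all 3 arrays of a group, and the brightest probe stood for a gene. The comparison used limma 3.58.1 (R 4.3.3) over 28995 features, two-sided, with Benjamini-Hochberg adjustment and a threshold of 0.05, and the model was tested on simulated data. The genes and lists were chosen with earlier results of these data known.

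Named were all 7 carbonic anhydrases. From each other list of genes came those past the threshold (for lists over 10, the 4 with the smallest p), or, if none passed, the 2 nearest to it. From each marker list came the brightest 2, and further 5 genes were those most like Car3. Other names, among them Hbb, Krt19, Pc, Ghr, Stat5b, Igf1, Bcl6, Jak2, Socs2, Onecut1 and Car13, were chosen after their values were seen. So were unmeasured markers and markers past the threshold. Alternatives covered background correction, scaling, filters, probe choice, variance model, slide, replicate number and leaving out each animal. Normexp used the median spot signal, since the scanner files used here carry no mean signal.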

Additional observations from a re-analysis of the deposited data

How the results depend on the processing

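The carbonic anhydrases were selected on this comparison, so their values here are a description. Car3 lay between -3.91 and -3.14 over the 22 alternatives. The 3 calls among the carbonic anhydrases became 1 with slide as a fixed block and with slide 1 alone, and 6 with spike-in scaling; leaving out 1 animal gave 1 to 3. Car1 did not pass without the filter on dim probes (-1.34), with slide as a fixed block or on slide 1 alone (both -1.54), was at -1.36 with slide as a random block, where the count of calls was 3, and ranged from -1.46 to -1.13 with 1 animal left out. Car8 was at -0.84 with the fixed block and on slide 1 alone, and ranged from -1.12 to -0.92 with 1 animal left out. With spike-in scaling Car2, Car5a and Car14 passed as higher, at 0.75, 0.50 and 0.62, Car9 turned to 0.14, and Inpp5f and Ctsc turned to 0.09. Car5a turned to -0.13 with array weights and ranged from -0.13 to 0.21 with 1 animal left out.

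Of all features 2715 passed, against 12996 with spike-in scaling, 4126 with array weights, 609 without the filter, 350 with slide as a fixed block, 120 on slide 1 alone and 335 to 1232 with 1 animal left out. Over the 5 lists of related genes 8 passed, against 21, 15, 5, 5 and 3 in the first 5 of those settings and 2 to 9 with 1 animal left out. With the replicate number as a block 353 features, 3 carbonic anhydrases and 1 related gene passed. Same-numbered animals deviated together with correlations of 0.092, 0.019 and 0.117, so the numbers were not taken to pair them. The causes of the changes were not tested. With 3 animals a group, a signal near background limits Car4 and Car13. Slide 2 held treated replicates 2 and 3 and no corn oil array, so slide and treatment cannot be told apart for them. Only treated replicate 1 shared a slide with the corn oil arrays.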
